A study of Homo sapiens with 8 samples.

Results

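The 10 genes described here encode the cell's group of barrel-shaped folding machines. Of these, 8 encode the subunits of TRiC, the chaperonin of the cytosol (TCP1, CCT2, CCT3, CCT4, CCT5, CCT6A, CCT7 and CCT8), and HSPD1 and HSPE1 encode HSP60 and HSP10, the chaperonin of mitochondria and its lid. They were chosen by name, and all 10 of 10 were found among the 13841 rows of the count table and were tested. The RNA came from the A549 cell line, which was derived from a lung adenocarcinoma and often stands in for alveolar epithelium. Both groups were exposed to 24 h of cyclic stretch at 15% elongation and 15 cycles per min, then kept in culture for 6 days and separated by β-galactosidase staining, a lysosomal readout that tends to be high in senescent cells. The positive group, labelled senescent, holds 4 libraries (numbers 1, 3, 4 and 5), and the negative group, labelled non-senescent, holds 4 (numbers 2, 6, 7 and 8). The labels name no drug, transgene or genetic change in either group. Unstretched cells were not analysed here.

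TRiC is built from stacked rings in which every subunit has its own place, and it uses ATP to close over a protein and let it fold. Actin and tubulin are its best known clients, and some cell cycle proteins such as CDC20 also need it, while the co-chaperone prefoldin hands over unfolded chains. HSP60 forms a similar barrel in the mitochondrial matrix and folds proteins that have just been imported, with HSP10 as its cap. HSPD1 and HSPE1 lie head to head on chromosome 2, and genes of this kind are classic targets of the heat shock factor HSF1.

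Total counts ranged from 5634961 to 7990839 per library, and the 10 genes together took 0.288% to 0.356% of them in 7 libraries and 0.538% in negative 2. Over all genes, edgeR's quasi-likelihood test called 0 of 11351 rows (0%) at an adjusted p under 0.05 and had 1631 at an unadjusted p under 0.05. DESeq2's Wald test called 52 and limma voom 0, none of the 10 genes among them. All 5 epithelial markers were detected, with 0 of 5 at an unadjusted p under 0.05, and KRT8, KRT19 and CDH1 had means of 623, 124 and 46.5 CPM (counts scaled to a common library size with TMM factors) in positive and 892, 140.1 and 57.8 CPM in negative cells. Of markers of other cells, the collagen gene COL1A1 stood between 5.60 and 8.91 CPM in every library, DCN had at most 5 counts, and PTPRC, PECAM1 and VWF were not analysed here. Nothing in the labels ties the libraries to separate cultures, and the p-values therefore reflect only the scatter among these 8 samples, part of which may be technical. In sorted bulk RNA, fewer cells of one kind and less RNA per cell cannot be told apart.

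The starts of HSPD1 (minus strand, 197500274) and HSPE1 (plus strand, 197500379) in RefSeq, build GRCh38.p14, are 105 bases apart, so the pair shares the sequence between and around them. RefSeq promoters were found for 9 of the 10 genes, 12 promoters in all. The 250 bases before each start were searched for cores of the heat shock element, TTCNNGAA and GAANNTTC, each of which reads the same on the other strand and can overlap the other. Either core was present in 3 of these 12 promoters, against 11.6% of all 35116 promoters and 12 of the 31 promoters of a list of heat shock genes. A match describes letters and no binding was measured. The windows below belong to the 3 genes with a match, and they are printed 5′ to 3′ on the gene's strand, at chr2:197500061-197500090 (minus), chr6:159789815-159789844 (minus) and chr12:69585789-69585818 (plus), with the cores in capitals. In HSPD1 there are 3 overlapping matches, ahead of a second RefSeq start at 197499840, which is 539 bases from that of HSPE1. The 250 bases before the HSPD1 start at 197500274 and before the HSPE1 start at 197500379 held 0 matches. In CCT2 the match precedes the start at 69585889, and the other start at 69585459 had 0.
HSPD1: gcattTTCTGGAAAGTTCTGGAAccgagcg
TCP1: tcgtttgaggcGAAGGTTCaacctcttccc
CCT2: cccggagcgaaGAAATTTCtagtgtgggac

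All 10 chaperonin genes had a lower mean in the positive cells, and none passed the test. The log2 fold change (positive over negative) ranged from -1.08 for HSPE1 to -0.04 for CCT8, where 51.9% of all tested rows were below 0 and their median was -0.02. The median over the 8 TRiC subunits was -0.38. At an unadjusted p under 0.05, edgeR had 5 of the 10 genes lower (HSPE1, HSPD1, CCT5, CCT2 and CCT6A) and 0 higher, where 6.85% of all tested rows were lower and 7.52% higher at that level. Much of this rested on negative 2, the library in which 9 of the 10 genes were at their highest. Without it the TRiC median was -0.15, 0 of 8 subunits were at an unadjusted p under 0.05, and HSPD1 and HSPE1 were the only ones of the 10 that still were. In that fit 3.01% of all rows were lower and 6.7% higher at that level.

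**Figure D1:**
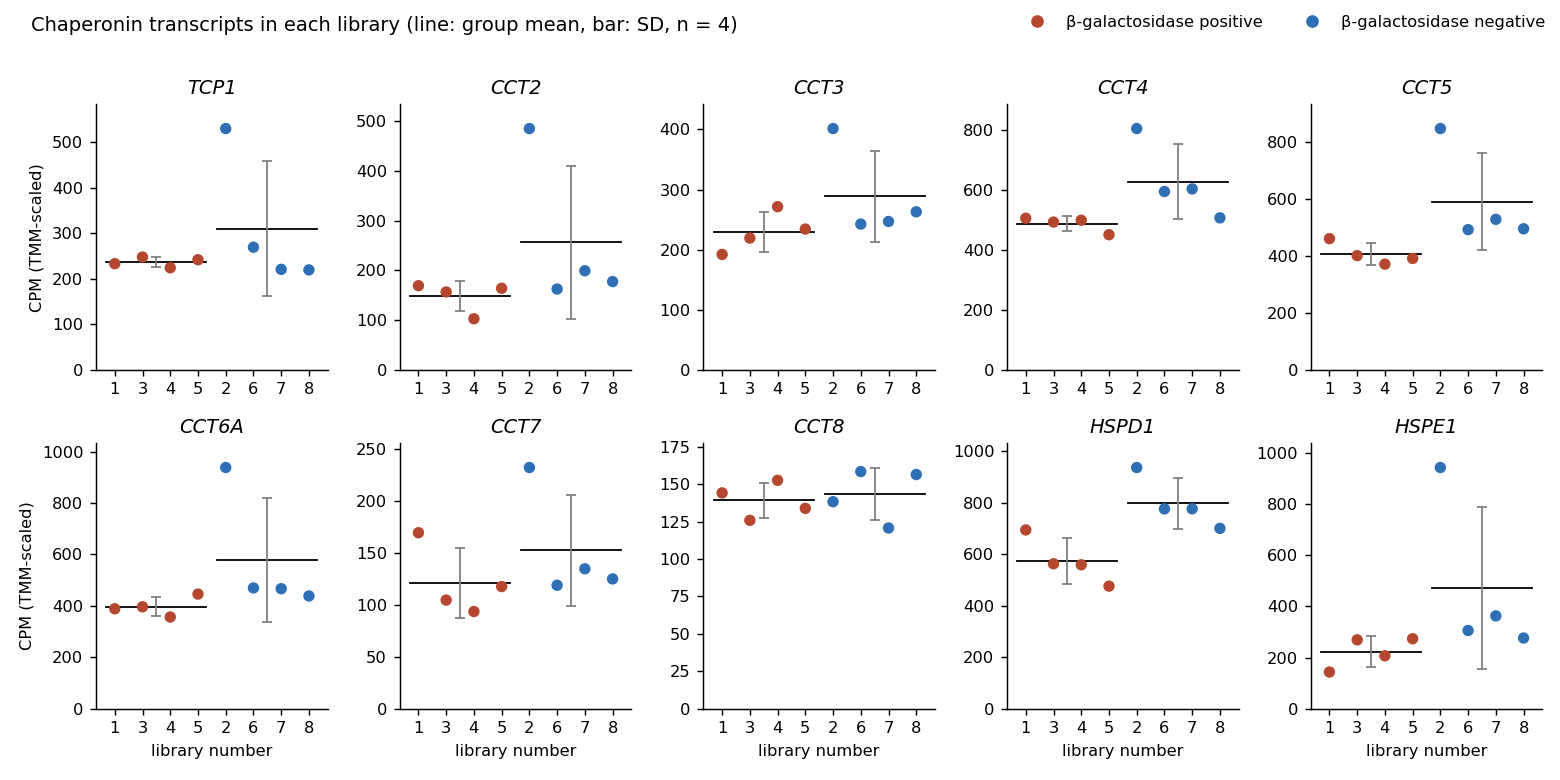
Expression of the 10 chaperonin genes in CPM (TMM-scaled, linear axis from 0) in each library, with a line at the group mean and a bar for the SD (n = 4 each). Negative 2 was the highest library for every gene except CCT8, and for HSPD1 all 4 positive libraries lay below all 4 negative ones.

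HSPD1, which encodes the barrel of HSP60, showed the steadiest difference. It stood at 694, 563, 559 and 476 CPM in positive 1, 3, 4 and 5 and at 937, 776, 776 and 700.3 CPM in negative 2, 6, 7 and 8. Every positive library was below every negative one, by a narrow gap between positive 1 and negative 8. Of the 10 genes 4 were lower without overlap (HSPD1, HSPE1, CCT4 and CCT5), as were 4.14% of all tested rows. The group means were 573 ± 90.2 and 797 ± 99.5 CPM (SD, n = 4 each), and the log2 fold change was -0.48 ± 0.17 (SE; 95% interval -0.85 to -0.10; edgeR adjusted p = 0.312). It was -0.38 (interval -0.73 to -0.02) without negative 2 and -0.48 (-0.77 to -0.18) without both negative 2 and positive 1. The groups did not overlap without negative 2, but removing the highest negative library can change this only through the new scaling. HSPD1 lies on chromosome 2 at 197486581 to 197516737 (GRCh38, GENCODE 29).

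HSPE1, which encodes the HSP10 cap, had the largest difference of the 10 and also the largest scatter. It was at 143, 269, 207 and 273 CPM in positive 1, 3, 4 and 5 and at 942, 306, 363 and 276 CPM in negative 2, 6, 7 and 8. Negative 2 alone was 2.99 times the mean of the other negative libraries, and positive 1 was 0.574 times the mean of the other positive ones. Positive 5 and negative 8 almost met. The means were 223 ± 61.3 and 472 ± 315.6 CPM (SD, n = 4 each), and the log2 fold change was -1.08 ± 0.37 (SE; interval -1.88 to -0.28; edgeR adjusted p = 0.309). Without negative 2 it was -0.48 (interval -0.95 to -0.01). The groups then overlapped, which can come only from the new scaling and not from the loss of the highest library. Without both negative 2 and positive 1 it was -0.31 (-0.65 to 0.02). limma voom, which weights down libraries that deviate, gave -0.46. HSPE1 lies at 197499994 to 197503457 on chromosome 2.

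The ratio of HSPE1 to HSPD1 counts within a library needs no scaling between libraries. HSPE1 had 100.6% of the HSPD1 count in negative 2 and 20.7% in positive 1, and between 37.0% and 57.4% in the other 6 libraries. The pair therefore parted in these libraries and kept within that range in the rest. The mean log2 ratio was -1.39 ± 0.64 for the positive and -0.94 ± 0.65 for the negative libraries (SD, n = 4 each; exact two-sided permutation p = 0.429, 0.6 after Benjamini-Hochberg adjustment over 3 ratios). HSPE1 against the summed TRiC counts was at -3.32 ± 0.46 and -2.79 ± 0.40 (SD, n = 4 each; exact permutation p = 0.171, adjusted 0.514), and HSPD1 against that sum at -1.93 ± 0.20 and -1.85 ± 0.25 (exact p = 0.6, adjusted 0.6). HSPD1 came to between 29.4% and 30.9% of the TRiC sum in negative 6, 7 and 8, and to 21.4% in negative 2. In positive 1, 3, 4 and 5 it came to 30.7%, 26.3%, 27.0% and 21.85%, so positive 5 was nearly as low as negative 2. Without negative 2, the difference in log2 ratio (positive minus negative) moved from -0.45 to -0.13 for HSPE1 to HSPD1 (exact permutation p = 0.8, adjusted 0.8), from -0.53 to -0.34 for HSPE1 to TRiC (exact p = 0.314, adjusted 0.471) and from -0.08 to -0.21 for HSPD1 to TRiC (exact p = 0.114, adjusted 0.343). No ratio passed the exact test with or without that library, and 4 against 4 or 4 against 3 libraries cannot give an exact p below 0.0286.

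**Figure D2:**
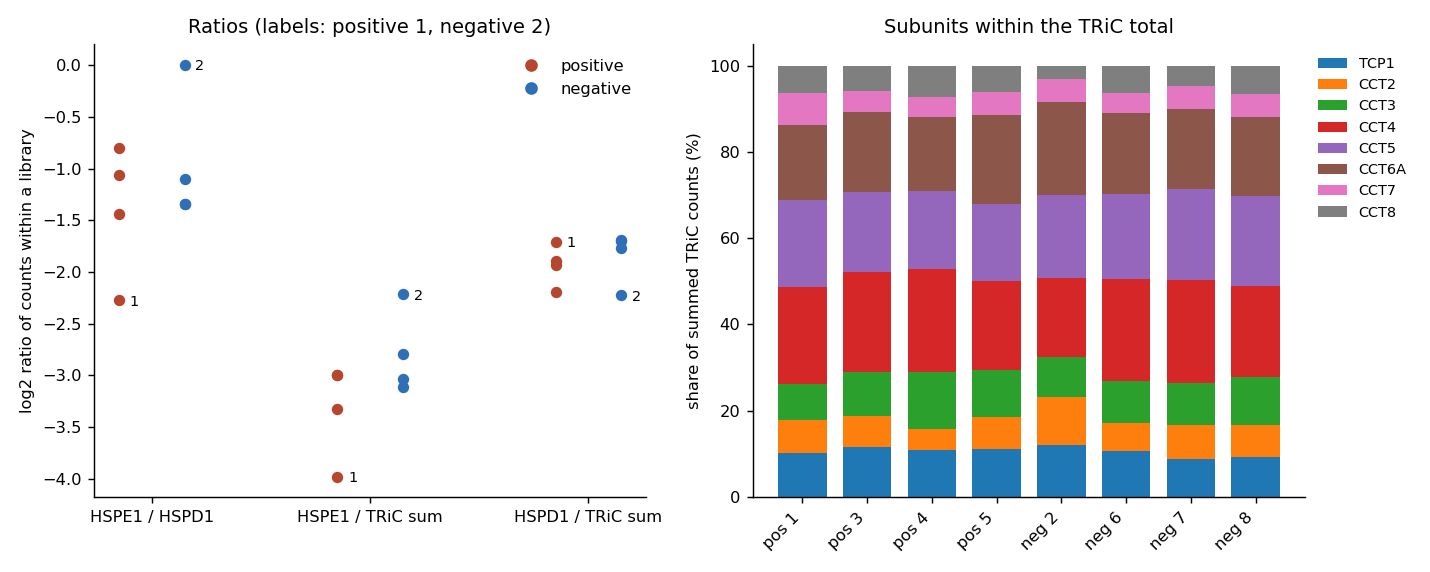
Left, log2 ratio of raw counts within each library (points, 4 per group, positive 1 and negative 2 marked). Right, share of each subunit in the summed TRiC counts in percent. The HSPE1 to HSPD1 ratio is lowest in positive 1 and highest in negative 2, and CCT8 has its smallest share, 3.16%, in negative 2.

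Among the TRiC subunits, CCT5 (epsilon), which is mutated in a hereditary sensory neuropathy, had the smallest p. It was at 460.5, 401, 371 and 391 CPM in positive 1, 3, 4 and 5 and at 847, 492, 528 and 495 CPM in negative 2, 6, 7 and 8. All positive libraries lay below all negative ones. The log2 fold change was -0.54 ± 0.20 (SE; interval -0.98 to -0.10; edgeR adjusted p = 0.312). It was -0.30 (-0.63 to 0.02) without negative 2 and -0.36 (-0.65 to -0.08) without both negative 2 and positive 1. CCT5 lies on chromosome 5 at 10249921 to 10266412.

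CCT4 (delta) came close to the same order. Its values were 505, 492, 498 and 449.9 CPM in positive 1, 3, 4 and 5 and 803, 594, 602 and 506 CPM in negative 2, 6, 7 and 8. Positive 1 and negative 8 differed by less than 2 CPM, and with other scalings (RLE, upper quartile or library totals) the groups overlapped. The log2 fold change was -0.37 ± 0.17 (SE; interval -0.74 to 0.01; edgeR adjusted p = 0.356), and -0.21 without negative 2.

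CCT2 (beta), in which mutations cause a retinal dystrophy, had the largest fold change of the subunits and the widest spread. It was at 169, 157, 103 and 164 CPM in positive 1, 3, 4 and 5 and at 486, 163, 199 and 178 CPM in negative 2, 6, 7 and 8. Negative 2 was 2.70 times the mean of the other negative libraries and positive 4 was the lowest of all 8. The log2 fold change of -0.79 ± 0.33 (SE; interval -1.50 to -0.08; edgeR adjusted p = 0.321) became -0.26 (-0.67 to 0.14) without negative 2. CCT6A (zeta) followed the same pattern, at 389, 396, 357 and 446 CPM in positive 1, 3, 4 and 5 and at 938, 469.8, 467 and 439 CPM in negative 2, 6, 7 and 8. Without negative 2 its log2 fold change moved from -0.54 ± 0.24 (SE) to -0.19. The rows of the pseudogenes CCT6P1 and CCT6P3, could share reads with CCT6A, and they stood at 5.11 and 17.5 CPM in positive and 7.87 and 17.3 CPM in negative cells.

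TCP1 (alpha), the subunit for which the complex was named, depended wholly on that library. It was at 233, 248, 224 and 242 CPM in positive 1, 3, 4 and 5, at 530.0 CPM in negative 2 and at 269, 221 and 219.6 CPM in negative 6, 7 and 8. Its log2 fold change was -0.39 (interval -0.96 to 0.18) over all libraries and 0.02 (-0.31 to 0.35) without negative 2. CCT3 (gamma) ranged from 192 to 272 CPM in positive and from 243 to 401 CPM in negative cells, at a log2 fold change of -0.33, or -0.11 without negative 2. CCT7 (eta) ranged from 93.5 to 169 and from 119 to 232 CPM, at -0.33, and of all subunits it stood out most in positive 1, at 1.61 times the mean of the other positive libraries. It was at -0.04 without negative 2 and at -0.54 without positive 1.

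CCT8 (theta) did not share the high value in negative 2. It was at 144, 126, 153 and 134 CPM in positive 1, 3, 4 and 5 and at 138, 158, 121 and 156 CPM in negative 2, 6, 7 and 8. Negative 2 was 0.952 times the mean of the other negative libraries for CCT8, against 1.42 (CCT4) to 2.70 times (CCT2) for the other 7 subunits. The groups lay over each other, at a log2 fold change of -0.04 (interval -0.39 to 0.30) that turned to 0.02 with upper quartile scaling and 0.07 with library totals. Within the summed TRiC counts, CCT8 took 3.16% in negative 2 and 4.79% to 7.37% in the other libraries, while CCT2 took 11.1% in negative 2 and 4.97% to 7.92% elsewhere. None of the 8 shares parted the positive from the negative libraries.

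**Figure D3:**
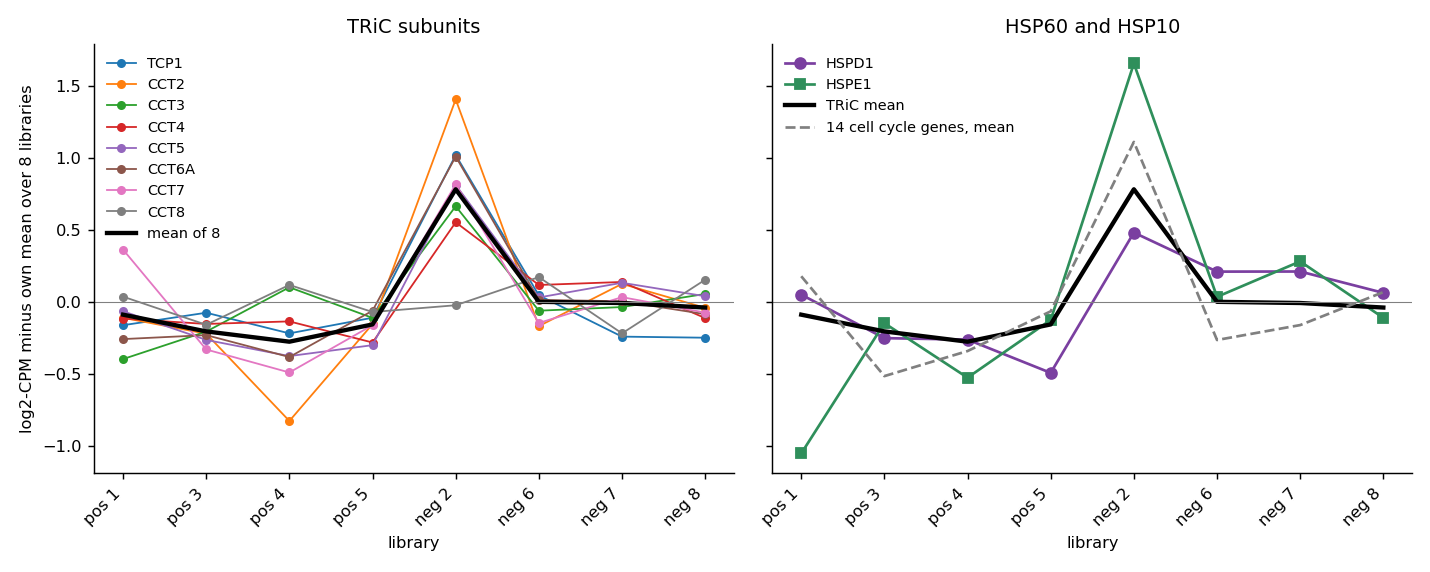
Log2-CPM of each gene minus its own mean over the 8 libraries, for the TRiC subunits (left) and for HSPD1 and HSPE1 beside the TRiC mean and the mean of 14 cell cycle genes (right). The TRiC mean peaks at 0.78 in negative 2, where CCT8 stands at -0.02, and HSPE1 runs from -1.06 in positive 1 to 1.66 in negative 2.

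The subunits thus varied together only in part. The root mean square difference from the mean TRiC profile, over the 8 libraries on the log2 scale, was 0.0885 for CCT5 and 0.114 for CCT6A, the nearest, and 0.304 for CCT2 and 0.343 for CCT8, the farthest subunits. That mean includes each subunit itself, which shortens these distances, and it does not include HSPD1, HSPE1 or any other row. HSPD1 was at 0.203, HSPE1 at 0.481, and HSPD1 and HSPE1 were 0.601 from each other. By the same measure the 5 nearest of 11341 other rows to the mean TRiC profile were RBBP7, which encodes a histone-binding protein, MRPS16 of the mitochondrial ribosome, THOC7 of the mRNA export complex, the folate enzyme gene MTHFD1, and PFDN1, which encodes a prefoldin subunit. These were 0.0655 to 0.0788 away, where the median row was 0.438 away, a gap that follows from picking the smallest of 11341 distances. Their centred log2-CPM in negative 2 was 0.67 to 0.81, and that of the TRiC mean 0.78, so a shared peak in 1 library shapes the match. Nearest to the mean of HSPD1 and HSPE1 were FAM98A, NDUFA12 (complex I), FERMT1 (an integrin activator), PSME3 (a proteasome activator) and ORC3 (replication origin recognition), at 0.0857 to 0.107 against a median of 0.552. That mean lies between unlike profiles, at 0.48 for HSPD1 and 1.66 for HSPE1 in negative 2 (centred log2-CPM). A row near it therefore need not follow either gene.

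Negative 2 was also the highest library for 12 of 14 genes of dividing cells, by margins that differed between them. The mean log2-CPM of 14 of 14 cell cycle genes was 7.50 in negative 2, 6.12 to 6.45 in negative 6, 7 and 8, and 5.87 to 6.56 in the positive libraries. PLK1 was at 157 CPM in negative 2 and at 31.2 to 59.0 CPM elsewhere, CCNA2 at 245 and 43.0 to 84.6, and TYMS at 360.3 and 149.1 to 278. For MCM3, MCM5 and MCM7 it was close to positive 1, at 110.7, 85.6 and 106.9 CPM against 103.8, 77.2 and 98.9 CPM. The exceptions were MKI67, at 124.8 CPM in negative 2 and 105.8 to 212 elsewhere, and PCNA, at 339 and 322 to 504. Over all libraries 11 of the 14 were below 0, with a median log2 fold change of -0.54. At an unadjusted p under 0.05, 5 were lower, where 6.85% of all tested rows were. Without negative 2 the median was 0.02. The part of this library's cell cycle level in the TRiC result was not tested. Without both negative 2 and positive 1, the cell cycle median was -0.18, with 12 of 14 genes below 0, and the TRiC median -0.20.

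**Figure D4:**
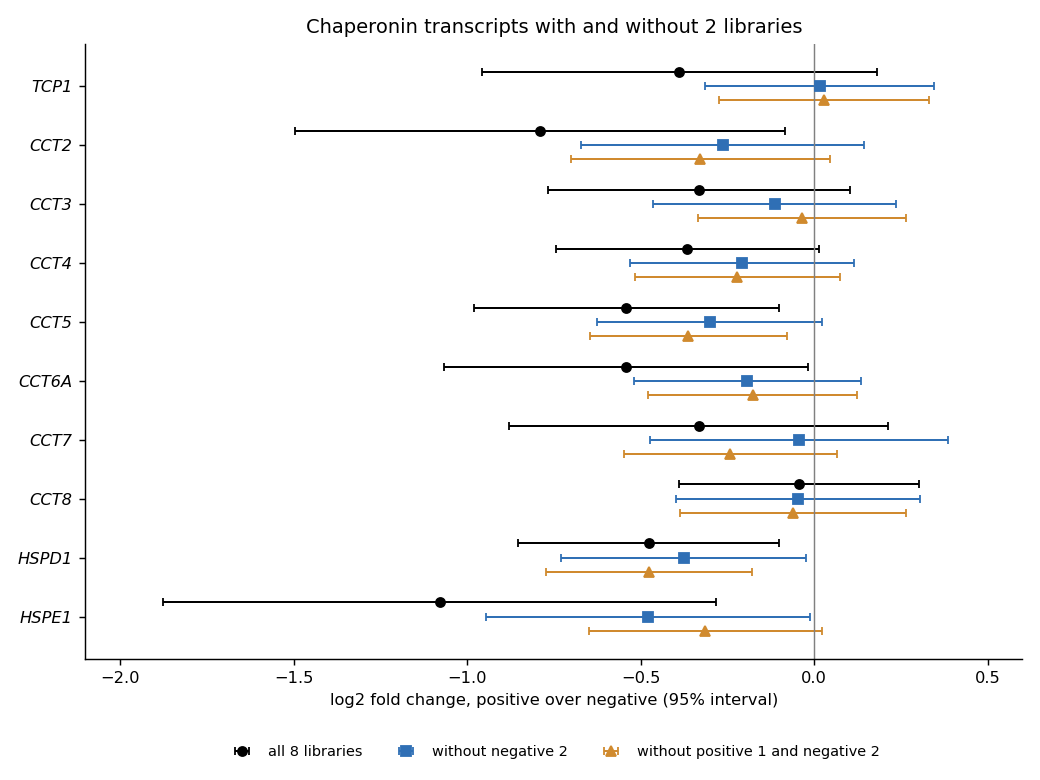
Log2 fold change of each gene, positive over negative, with its 95% interval, over all 8 libraries, without negative 2 and without both positive 1 and negative 2. Without negative 2 the intervals of HSPD1 and HSPE1 stay below 0, and without both libraries those of HSPD1 and CCT5 do. In the fit without both, 1145 of 11401 rows were at an unadjusted edgeR p under 0.05 in either direction.

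The partners of TRiC were mixed. Of 9 tested genes of prefoldin and other TRiC regulators 6 were below 0 (median -0.32). At an unadjusted p under 0.05, where 6.85% of all tested rows were lower and 7.52% higher, 1 gene was lower and 0 higher. That gene was PFDN6, a prefoldin subunit, at 75.6, 83.9, 62.4 and 101 CPM in positive 1, 3, 4 and 5 and at 275, 88.3, 175 and 115.8 CPM in negative 2, 6, 7 and 8. Its log2 fold change was -1.02 (interval -1.69 to -0.35), and -0.63 without negative 2. VBP1, another prefoldin subunit, was at -0.60, and PDCL3, a phosducin-like co-factor of TRiC, at -0.59. Without negative 2 these were -0.20 and -0.31, and the median of the 9 genes was -0.07. Of the 4 tested tubulin cofactors, 2 were below 0 and TBCE was the 1 at an unadjusted p under 0.05. TBCE was at -0.49, TBCC at 0.46 and TBCB at -0.25. Without negative 2 they were at -0.37, 0.44 and -0.01, and 0 of the 4 were at an unadjusted p under 0.05. The relatives of the chaperonin fold BBS12 and MKKS were at 0.07 and 0.05, and CCT6B, the paralog of CCT6A that is mainly found in testis, had at most 15 counts and was not tested.

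Of 18 tested TRiC clients 18 were below 0 (median -0.39), where 51.9% of all tested rows were. At an unadjusted p under 0.05, 2 were lower, where 6.85% of all tested rows were. CDC20, the activator of the anaphase-promoting complex, was at 162 CPM in negative 2 and 24.0 to 55.7 CPM elsewhere, WRAP53, which carries telomerase RNA, at 27.0 and 8.91 to 13.7, and the tubulin gene TUBA4A at 196 and 30.1 to 54.7. Their log2 fold changes of -1.10, -0.69 and -0.92 were -0.29, -0.27 and -0.02 without negative 2. Without that library 14 of the 18 were below 0, where 48.2% of all rows were. The median was then -0.11 and 0 of the 18 were lower at an unadjusted p under 0.05. Not every client peaked in negative 2. ACTB, an actin gene named after its values were seen, was at 6698 CPM there and 5151 to 7794 CPM elsewhere. Its log2 fold change was -0.21, and -0.22 without negative 2. ACTG1 and TUBB were not analysed here.

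**Figure D5:**
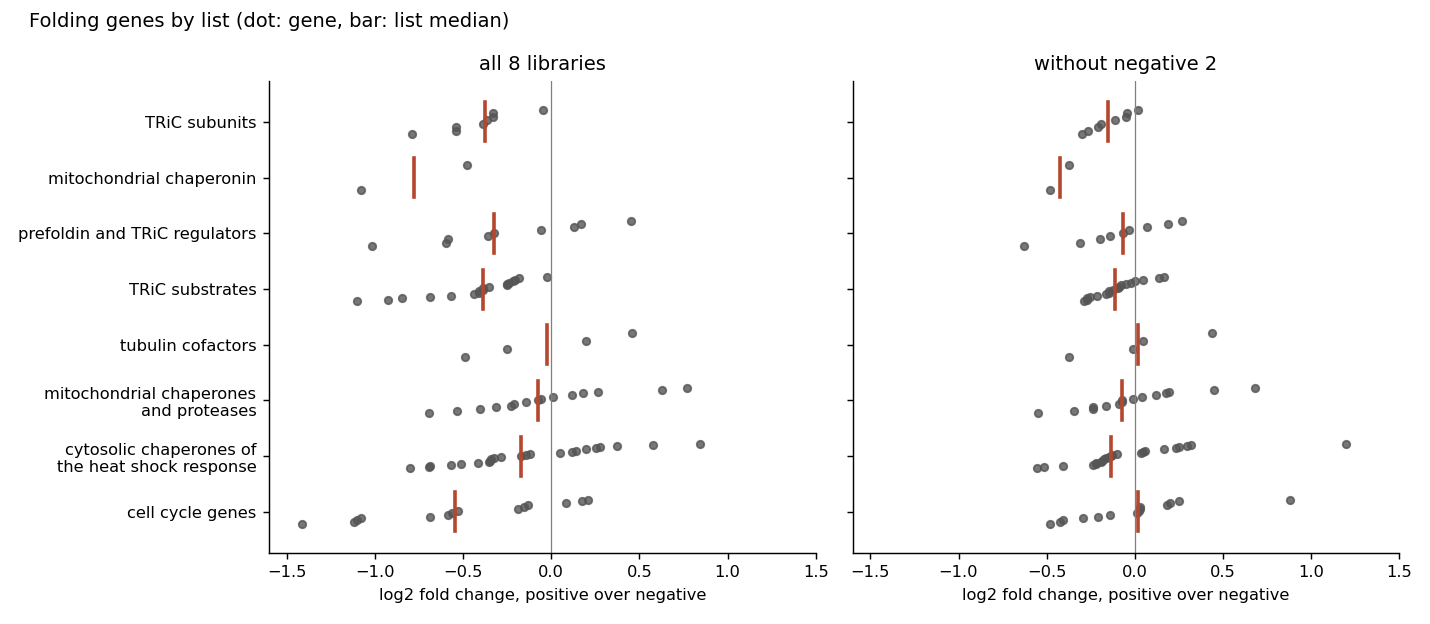
Log2 fold change of every tested gene of 8 lists (dots, spread vertically for display), with the list median (bar), over all 8 libraries and without negative 2. The TRiC median moves from -0.38 to -0.15, that of its clients from -0.39 to -0.11 and that of the mitochondrial chaperones and proteases from -0.07 to -0.07.

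Other genes of protein folding and turnover in the mitochondrion were mixed. Of 15 tested mitochondrial chaperones and proteases 9 were below 0 and 6 above, with a median of -0.07. At an unadjusted p under 0.05 there were 2 lower and 1 higher, where 6.85% of all tested rows were lower and 7.52% higher. Lower without overlap were 4 of them, GRPEL1, YME1L1, CLPX and DNAJA3, the last 2 at -0.31 and -0.21 and named after their values were seen. Of all tested rows 4.14% were lower without overlap. Higher without overlap was 1 of the 15, SPG7. GRPEL1, the nucleotide exchange factor of mitochondrial HSP70, was at 18.9, 18.3, 16.0 and 16.4 CPM in positive 1, 3, 4 and 5 and at 35.2, 27.1, 26.6 and 23.4 CPM in negative 2, 6, 7 and 8. The groups did not overlap, and its log2 fold change was -0.69 (interval -1.12 to -0.27) and -0.55 without negative 2. YME1L1, an inner membrane protease, was at -0.53 and -0.35 without negative 2. SPG7, a subunit of a matrix-facing protease, went the other way, at 142, 103, 80.9 and 92.7 CPM in positive 1, 3, 4 and 5 and 48.4, 65.3, 58.4 and 73.3 CPM in negative 2, 6, 7 and 8, a log2 fold change of 0.77 (0.32 to 1.22). Without negative 2 that fold change was 0.68. The edgeR adjusted p of GRPEL1 and SPG7 was 0.309, and that of YME1L1 0.312.

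Of 23 tested rows of chaperones of the heat shock response, cytosolic but for SERPINH1, 14 were below 0 (median -0.17). At an unadjusted p under 0.05, 4 were lower and 0 higher, where 6.85% of all tested rows were lower and 7.52% higher. Without negative 2 the median was -0.14, with 14 of 23 below 0 and 3 lower at that level, where 3.01% of all rows were lower. HSPA1A has 2 of the 23 rows, at -0.12 and 0.84 over all libraries, whose counts differ only in negative 7 and 8. STIP1, which links HSP70 to HSP90, was at 252, 229, 248 and 226 CPM in positive 1, 3, 4 and 5 and at 508, 301, 387 and 349 CPM in negative 2, 6, 7 and 8, with no overlap. Its log2 fold change was -0.69 (interval -1.09 to -0.30; edgeR adjusted p = 0.309), and -0.52 without negative 2. HSPA14, a ribosome-bound HSP70 relative, was at -0.69 and the small heat shock gene HSPB1 at -0.51, or -0.56 and -0.41 without negative 2. HSF1 and HSPH1 were not analysed here.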

How the data were processed

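Per the labels' protocols, total RNA was extracted with Trizol and made into targeted amplicon libraries for human transcripts (Ion Torrent). The submitters' processing notes name Salmon 1.9, fastp 0.20.1 and the build GRCh38. The table deposited by the authors holds estimated counts, one row a gene, rounded to whole numbers and left unscaled. Not given in the sources used here are its annotation and any filter before deposit. An amplicon count depends on its amplicon, so a difference in level between 2 genes says nothing of their abundance, and ratios between genes serve only to compare libraries. Reads of near-identical gene copies can be divided between rows.

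Rows were kept with filterByExpr (minimum count 10, total 15), which left 11351 of 13841. They were tested across all genes with edgeR 4.0.16 in R 4.3.3 (TMM, quasi-likelihood, robust, two-sided), adjusted by Benjamini-Hochberg and called below 0.05. Profiles used log2-CPM with a prior count of 2. Alternatives were other scalings and filters, DESeq2 1.42.0, limma 3.58.1 (voom), an exact permutation test, left-out libraries and, added after seeing the data, removal of a curve over transcript length and GC content (98.27% of rows had values). The fit was tested on simulated data. Genes named were the 10 members, the 3 of smallest p in each fixed list and the 5 nearest profiles. Named outside that rule, after their values were seen, were among others MCM3, MCM5, MCM7, MKI67, PCNA, ACTB, CLPX and DNAJA3. Members and lists were chosen with earlier results of these data known. Coordinates are from GENCODE 29, promoters from RefSeq.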

Additional observations from a re-analysis of the deposited data

Results flagged for a closer look

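In 7 of the 10 genes, negative 2 lay farther from the other negative libraries than Dixon's 95% limit for 4 samples allows. These were HSPE1 at 942 CPM against 276 to 363 in the others, CCT6A at 938 against 439 to 469.8, CCT5 at 847 against 492 to 528, TCP1 at 530.0 against 219.6 to 269, CCT2 at 486 against 163 to 199, CCT3 at 401 against 243 to 263 and CCT7 at 232 against 119 to 135. The log2 ratio of HSPD1 to the summed TRiC counts was also apart in negative 2, at -2.22 against -1.77 to -1.69 in the other negative libraries. It was -2.19 in positive 5. All 8 marked values belong to 1 library and 26 groups of values were examined, where chance marks about 1 in 20. CCT4, CCT8 and HSPD1 were not marked in either group, and no positive library was.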

How the results depend on the processing

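Over 19 alternatives, 182 of 190 fold changes of the 10 genes kept their direction and side of the threshold, 8 changed sign and 0 passed (lowest adjusted p 0.14, HSPE1 with DESeq2). The exact permutation test of log2-CPM cannot give a p below 0.0286. Its lowest adjusted p over all rows was 0.313, so a pass was out of reach for these genes there. TCP1 was at 0.028 without both positive 1 and negative 2 and between -0.53 and 0.016 with single libraries left out. CCT8 was at 0.020 with upper quartile scaling, 0.066 with library totals, 0.0048 with at least 50 counts, 0.0089 with the length and GC curve taken out and between -0.12 and 0.025 with single libraries left out. HSPD1 stayed between -0.58 and -0.35 and HSPE1 between -1.24 and -0.31. The TRiC median stayed between -0.46 and -0.15 with single libraries left out, and -0.15 was without negative 2. The number of subunits at an unadjusted p under 0.05 was 0 without positive 4 too. Scaling by totals moved the TRiC median from -0.38 to -0.23, and the number of subunits at an unadjusted p under 0.05 from 3 to 1. It moved the median of all rows from -0.02 to 0.10, and relative to that the TRiC median was -0.36 with TMM and -0.33 with totals. Without overlap under all scalings but upper quartile were HSPD1 and HSPE1, and under all but totals CCT5. Over all rows DESeq2 called 52, and leaving out single libraries gave 0 to 1 (TBRG1 without negative 6, CBWD5 without negative 8). The cause of these changes was not tested. No paired analysis was possible because each library number was used in only 1 group. Group size limits precision: the median half-width of a TRiC interval was 0.48.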
